A study of Zea mays with 12 samples.

Results

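The basic helix-loop-helix (bHLH) transcription factor genes were taken from the deposited table of maize stem transcripts as the maize gene rows whose description holds "HLH" or "helix-loop-helix". The rule found 81 of 29723 maize gene rows and used no measured value. Of these, 74 were described by a helix-loop-helix DNA-binding domain superfamily, 4 as BHLH transcription factors and 3 as proteins that contain the domain. The description of no member gave a more specific function, so the genes are called here by their identifiers and, for 13 of the 46 members that matched the RefSeq table of the maize assembly Zm-B73-REFERENCE-NAM-5.0, by the bHLH number given there. A further 29 gene rows outside the rule carried a bHLH number in that table and were kept apart.

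bHLH proteins bind DNA as dimers: the basic part contacts short palindromic E-box motifs, and the helix-loop-helix part joins the partners. In plants the family includes the MYC factors, which switch on jasmonate responses to wounding and to chewing insects and are held back by JAZ repressors. It also includes the phytochrome-interacting factors, regulators of iron uptake, and the maize R and B proteins, which work with MYB partners to turn on the anthocyanin enzymes. The descriptions do not say which members belong to these branches.

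Samples came from the stem internode below the main ear of the maize inbred line PB130, collected at day 15, with 3 libraries in each of 4 groups. Control plants were untreated, larva plants carried caterpillars of the stem borer *Sesamia nonagrioides*, wounding plants had leaf sheaths scratched with a scalpel and wetted with phosphate buffer, and regurgitate plants were scratched in the same way and given caterpillar regurgitate in that buffer. All 4 groups shared the line and the age, and the collected piece of stem was free of damage, so the samples are of tissue away from the wound. The labels and the methods differ on how many plants were used and on the stage at treatment (VT or silking), and p-values here measure the spread between the 3 libraries of a group. MACE, the 3′-end sequencing used, reads 1 fragment per transcript, so that levels do not grow with gene length. Setting levels side by side between genes still has limits. Of the members, 26 were counted with reads beyond the annotated gene and 55 without, and close gene copies can share reads.

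Libraries held 5651382 to 10056972 counts in all and 3047770 to 8390616 on maize genes. Levels are given in CPM, the usual scale for a gene's share of its library, here its count divided by the counts on maize genes after scaling of the libraries by TMM. Assembled contigs, which are no maize gene rows, took 17.4% to 34.4% of the counts in wounding libraries and 19.2% and 48.0% in regurgitate 1 and 2, against 1.03% in regurgitate 3 and 2.34% to 7.53% in control and larva libraries. Regurgitate 3 also stood apart in features that join several gene identifiers, of which 156 of 480 were at 0 there and 17 to 41 elsewhere. Larva 2 and larva 3 were closer to each other (chi-square per degree of freedom 1.56) than any other pair of replicates (16.6 to 67.8), although they differed by more than sampling noise and were kept as 2 samples. Among tissue markers, the list for secondary wall and lignifying tissue summed to 867.1 to 1587 CPM in control, 761.1 to 879.1 in larva, 553.8 to 817.3 in wounding and 611.7 to 733.2 in regurgitate libraries. In a bulk sample fewer cells of a type and less RNA per cell cannot be told apart.

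Most bHLH genes were expressed at low levels in the stem. A filter on low counts left 45 of the 81 members in at least 1 comparison, and 36 in none. The 44 members that passed in all 12 libraries together had means of 1.21 to 147.3 CPM with a median of 9.15, against a median of 17.96 for the 20224 genes tested, and no untested member was above 1.02 CPM. Members that passed the filter are therefore the more abundant ones, and 15 members had under 12 counts in the 12 libraries together. The family sum was 745.7 to 887.8 CPM in control, 692.3 to 880.1 in larva, 928.0 to 1263 in wounding, and 774.0, 1158 and 715.2 CPM in regurgitate 1 to 3. The wounding libraries thus had the higher sums, above every control and larva library, and only regurgitate 2 lay among them. The order rested on GRMZM2G133675, the most abundant member: without it the sums were 680.7, 879.9 and 696.9 CPM in wounding libraries, 835.6, 699.1 and 737.6 CPM in control and 830.6, 648.5 and 619.2 CPM in larva libraries, and the groups overlapped.

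The 4 most abundant genes carried 31.2% to 53.5% of the family sum in a library. GRMZM2G133675 was the most abundant member with a mean of 147.3 CPM over all libraries, followed by GRMZM2G017586 (bHLH172) with 95, GRMZM2G061906 with 88.8 and GRMZM2G030762 (bHLH55) with 53.6 CPM. GRMZM2G061906 was at 76.7, 103.4 and 79.8 CPM in control, 88.3, 81.5 and 69.6 in larva, 71.7, 95.1 and 93.5 in wounding, and 67.6, 134.1 and 104.3 in regurgitate libraries. GRMZM2G049229, with 45.5 CPM on average, was at 81.6, 29.3 and 42.2 CPM in control and at 34.6, 52.9 and 60.4 CPM in wounding libraries. Control and wounding libraries of GRMZM2G061906 and GRMZM2G049229 overlapped, whereas those of GRMZM2G133675 and GRMZM2G030762 did not and are described with the wounding comparison.

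The difference among the 4 treatments was tested first, in 1 fit of all 12 libraries. By edgeR's quasi-likelihood test with Benjamini-Hochberg adjustment over all genes, 19 of 44 members (43.2%) passed an FDR of 0.05, where 33.9% of all genes passed, and DESeq2 called 22 members and 45% of all genes. The smallest adjusted p-values of edgeR's test were those of GRMZM2G094892 (0.000854), AC149829.2_FG004 (0.00135), GRMZM2G133675 (0.00384), GRMZM2G004356 (0.00645), GRMZM2G340177 (0.00752) and GRMZM2G171818 (0.00953). GRMZM2G094892 passed the filter only through the wounding group, where it was high. AC149829.2_FG004 and GRMZM2G171818 had few counts in wounding libraries and passed only through other groups, so that these p-values are of genes that had to differ. Ordered by group means, 23 of the 44 members (52.3%) were lowest in wounding, against 38.7% of all genes, and 17 (38.6%) were highest in control, against 24.4% of all genes. The 13 members highest in wounding made 29.5%, below the 36.3% of all genes.

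In the comparison of wounded with control plants, which asks how the stem differed after repeated scratching of the leaf sheaths, bHLH genes moved in both directions. Of 38 members tested, 23 (60.5%) passed edgeR's test, where 38.8% of the 19166 genes did. Of these, 8 were higher (21.1%, against 19.6% of all genes) and 15 were lower (39.5%, against 19.3%). The share of higher members was thus near the background, while that of lower members was 20.2 percentage points above it. That gap was 8.4 points without control 3 (21.4% of members, against 13.1% of all genes), 12.9 points without wounding 1, 7.1 points with library totals in place of TMM (42.1%, against 35.1%) and 8.8 points with no filter on low counts. Members such as GRMZM2G094892, GRMZM2G340177, AC149829.2_FG004, AC193786.3_FG005 and GRMZM2G171818 had few counts in the group where they were low and passed the filter through the other group, and with no filter 36.4% of 77 members passed the test, against 26.9% of all genes. The median size of the change, on the log2 scale and in either direction, was 1.18 for the members and 0.64 for all genes, and the groups did not overlap for 26 members (68.4%) and for 55.2% of all genes.

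Among the genes that rose, GRMZM2G133675 was at 52.2, 46.6 and 46.0 CPM in control 1 to 3 and at 305.5, 383.1 and 231.1 CPM in wounding 1 to 3. All wounding libraries lay far above all control libraries. Its log2 fold change was 2.66 ± 0.24 (SE, n = 3 per group, adjusted p = 0.000784 by edgeR). It was at 49.5, 70.8 and 73.1 CPM in larva libraries, and at 106.3, 326.1 and 77.1 CPM in regurgitate libraries, of which only the second reached the wounding range.

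GRMZM2G340177 and GRMZM2G094892 were barely detected in control stems and present after wounding. GRMZM2G340177 was at 0.37, 0.16 and 0.54 CPM in control and at 7.17, 16.4 and 10.51 CPM in wounding libraries, from 8 and 160 counts in all. It rose by 4.87 ± 0.52 on the log2 scale (adjusted p = 0.00112 by edgeR), and the ratio of the pooled counts was 30.5 (95% exact interval 15.1 to 71.9, for counting error only). GRMZM2G094892 was at 0.25, 0.31 and 0.27 CPM in control and at 4.91, 4.59 and 7.83 CPM in wounding libraries, a rise of 4.28 ± 0.43 (adjusted p = 0.000936). The groups of both genes were wide apart although their levels were low.

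The next genes by p-value were more abundant. GRMZM2G093744 (bHLH172) was at 23.4, 32.7 and 24.0 CPM in control and at 55.1, 85.3 and 61.5 CPM in wounding libraries, with a log2 fold change of 1.32 ± 0.24 (adjusted p = 0.00574 by edgeR). The joined feature GRMZM2G166642/GRMZM2G016039, whose reads could not be split between its identifiers, was at 5.55, 10.4 and 22.4 CPM in control and at 77.2, 101.2 and 38.9 CPM in wounding libraries. Its log2 fold change was 2.49 ± 0.56 (adjusted p = 0.0132 by edgeR), with no overlap between the groups. The call of the joined feature was lost without control 2, where the log2 fold change was 2.36. GRMZM2G017414 was at 23.1, 22.8 and 19.6 CPM in control and at 33.8, 65.4 and 40.3 CPM in wounding libraries (log2 fold change 1.08 ± 0.27, adjusted p = 0.0185), and this call was lost without control 2 (1.11) and without control 3 (0.999). The other genes that rose were GRMZM2G313058 (1.13 ± 0.37, adjusted p = 0.0473) and GRMZM2G350312 (0.63 ± 0.18, adjusted p = 0.0316), both close to the threshold.

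The genes that fell included members that were nearly absent after wounding. GRMZM2G171818 was at 29.2, 4.56 and 17.8 CPM in control and at 0.76, 0.22 and 0.22 CPM in wounding libraries, from 398 and 6 counts. Its controls were spread widely, yet the lowest of them was above every wounding library. The log2 fold change was -5.32 ± 0.88 (adjusted p = 0.00447 by edgeR).

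AC149829.2_FG004 was at 4.07, 6.61 and 5.66 CPM in control and at 0.38, 0.22 and 0.22 CPM in wounding libraries, from 117 and 4 counts (log2 fold change -4.20 ± 0.45, adjusted p = 0.00112 by edgeR). AC193786.3_FG005 was at 5.68, 2.99 and 7.95 CPM in control libraries, at 0.38 CPM in wounding 1 and at 0 in wounding 2 and 3. With 2 counts in wounding against 124 in control libraries, its level ratio was 0.0246 (95% exact interval 0.00295 to 0.0908, counting error only), and the adjusted p was 0.00435. The wounding libraries of both genes were at the limit of detection and below all controls.

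GRMZM2G042895 (bHLH116) was the most abundant of the genes with a large fall. It was at 44.8, 42.8 and 24.7 CPM in control and at 5.29, 2.19 and 1.34 CPM in wounding libraries, a log2 fold change of -3.64 ± 0.49 (adjusted p = 0.00223 by edgeR). The larva libraries of this gene did not resemble each other, with 82.4 CPM in larva 1, above all controls, and 11.9 and 13.7 CPM in larva 2 and 3, below all controls.

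Of the other lower members with a bHLH number, GRMZM2G004356 (bHLH159) was at 39.2, 19.8 and 24.3 CPM in control and at 8.12, 4.15 and 8.05 CPM in wounding libraries (-2.04 ± 0.36, adjusted p = 0.00565 by edgeR). GRMZM2G030762 (bHLH55) was at 51.9, 71.1 and 76.7 CPM in control and at 23.2, 33.0 and 29.3 CPM in wounding libraries (-1.24 ± 0.22, adjusted p = 0.00572). Neither gene had a wounding library that reached a control library. GRMZM2G080168 (bHLH141, -2.11 ± 0.50), GRMZM2G017349 (bHLH125, -1.73 ± 0.48) and GRMZM2G176289 (bHLH11, -1.18 ± 0.32) also fell, with adjusted p-values of 0.0158 to 0.0265, but each of these calls was lost in at least 1 fit that left out a library. The remaining 6 lower members were GRMZM2G062541, GRMZM2G154029, GRMZM2G005939, GRMZM2G072238, GRMZM2G004732 and GRMZM2G158281, with log2 fold changes of -1.81 to -1.01. Of the 8 tested members with a bHLH number, 1 was called higher and 6 lower, where 19.6% of all genes were higher and 19.3% lower. The uncalled member, GRMZM2G017586, shares the number bHLH172 with GRMZM2G093744, the member called higher.

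Calls for single genes differed in how well they stood. Of the 23 members, 13 (4 higher and 9 lower) passed in each of the 6 fits that left out 1 library and under the 8 other settings. The higher ones were GRMZM2G133675, GRMZM2G340177, GRMZM2G094892 and GRMZM2G093744. Of the 13, GRMZM2G340177, GRMZM2G094892, AC149829.2_FG004, AC193786.3_FG005, GRMZM2G171818 and GRMZM2G042895 passed the filter only through the group where they were high. That they stayed called is therefore no separate support. The other 10 of the 23 were lost in at least 1 of those 6 fits. Across these fits 38.1% to 57.5% of the tested members passed, where 26.8% to 34.3% of all genes did. The split between directions moved with the scaling: when libraries were scaled by totals on maize genes only, the median of all genes shifted to -0.44 on the log2 scale, with 5 members higher and 16 lower, and 2372 genes higher against 6718 lower in place of 3747 and 3691. The secondary wall markers moved with wounding too, as 14 of 20 tested were lower and 2 higher with a median of -2.08, and so did the share of contigs. Of the green leaf markers 4 of 18 were lower and 0 higher, and of the dividing cell markers 3 of 46 were higher and 7 lower. The part of any of these in the bHLH values was not tested.

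**Figure D1:**
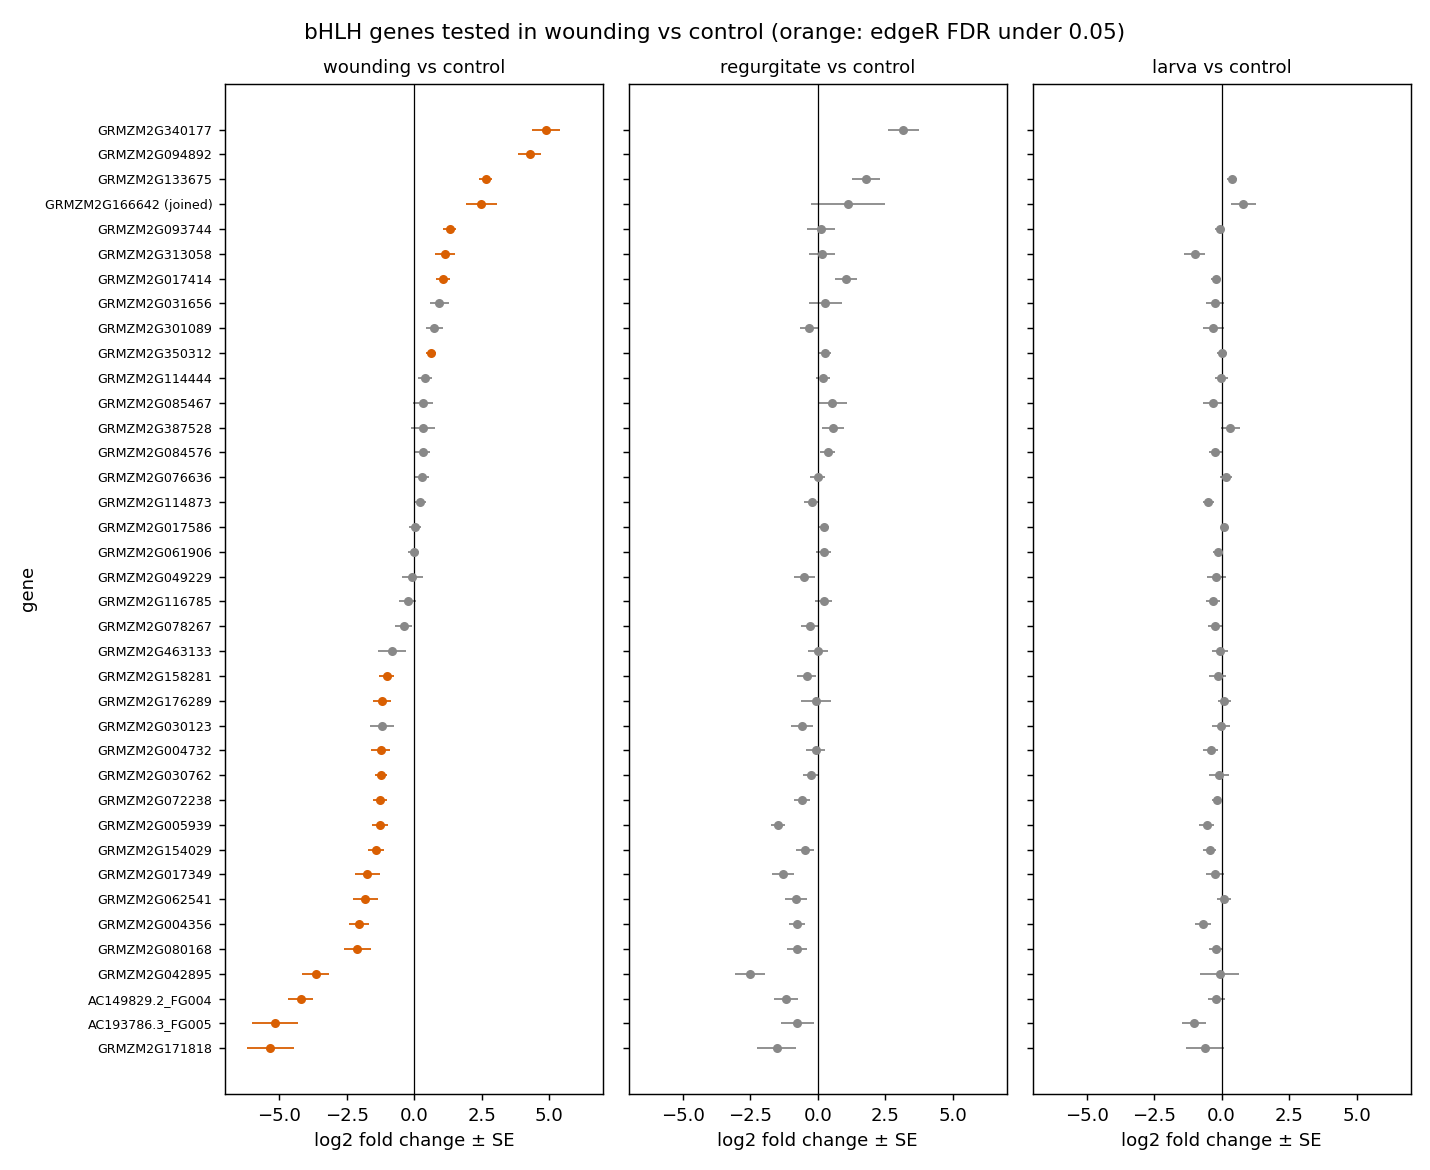
Log2 fold change with its standard error for the 38 bHLH genes tested in wounding against control (left), and for the same genes in regurgitate against control (middle) and larva against control (right), where they were tested. Orange marks an edgeR FDR under 0.05, which 23 genes reached on the left and none in the other panels, all of which share the control libraries.

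Plants given regurgitate were compared with the same controls. By edgeR's test 0 of 40 members passed, where 1.28% of 19171 genes did. At an unadjusted p under 0.05 there were 8 members (20%, against 19.4% of all genes), and DESeq2 called 4 members (10%) and 8.9% of all genes, so that these shares were near the background. The 4 genes DESeq2 called were GRMZM2G340177 and GRMZM2G133675, higher in regurgitate plants (5% of the members, against 5.98% of all genes), and GRMZM2G005939 and GRMZM2G042895, lower (5%, against 2.93%). Among them GRMZM2G340177 and GRMZM2G042895 passed the filter only through the group where they were high, so that their p-values are of genes that had to differ.

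GRMZM2G340177 was at 4.45, 3.74 and 2.36 CPM in regurgitate libraries, above the controls given with the wounding comparison and below every wounding library (3.17 ± 0.56 against control, adjusted p = 0.0580 by edgeR). It passed edgeR's test when regurgitate 3 was left out, with a log2 fold change of 3.43, and was then the only member that did (2.33%, against 2.47% of all genes). GRMZM2G005939 was at 38.1, 45.3 and 32.1 CPM in control and at 18.7, 10.8 and 12.4 CPM in regurgitate libraries (-1.47 ± 0.27, adjusted p = 0.0622), close to its 12.1, 23.2 and 12.97 CPM in wounding libraries. GRMZM2G042895 was at 11.8, 1.87 and 5.61 CPM in regurgitate libraries (-2.51 ± 0.57, adjusted p = 0.0955). Regurgitate libraries of these genes did not overlap the controls, but the test did not call them at this spread. The groups did not overlap for 12 members (30%) and for 29.4% of all genes, so that this share too was near the background.

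Regurgitate against wounding is the comparison of the design that separates the caterpillar fluid from the scratch. Of 39 members tested, 0 passed edgeR's test, where 0.0602% of 18285 genes (11 genes) did. No label pairs these libraries. With the replicate number as a block, an alternative setting, 0 members and 0 genes passed. At an unadjusted p under 0.05 there were 10 members (25.6%, against 19.8%), and DESeq2 called 6 members (15.4%), where it called 8.93% of all genes. Of these 6, 4 were higher (10.3%, against 3.98%) and 2 lower (5.13%, against 4.95%). Among them GRMZM2G171818, GRMZM2G132550 and GRMZM2G094892 passed the filter only through the group where they were high. The shares are therefore in part of genes that had to differ. The groups did not overlap for 13 members (33.3%) and for 26.4% of all genes.

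On the higher side, GRMZM2G171818 was at 4.89, 2.62 and 10.04 CPM in regurgitate libraries, above all wounding libraries, with a log2 fold change of 3.79 ± 0.75 (adjusted p = 0.0852 by edgeR). AC149829.2_FG004, which the filter kept out of this test, was at 3.56, 1.12 and 2.36 CPM, GRMZM2G004356 at 16, 13.8 and 19.5 CPM (1.28 ± 0.33, adjusted p = 0.116) and GRMZM2G030762 at 49.1, 43.7 and 75.2 CPM (0.97 ± 0.29, adjusted p = 0.142). All regurgitate libraries of these genes lay above all wounding libraries.

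In the other direction, GRMZM2G094892 was at 0.89, 1.87 and 0.89 CPM in regurgitate libraries, below its wounding libraries (-2.32 ± 0.48, adjusted p = 0.0866 by edgeR). GRMZM2G340177 differed by -1.72 ± 0.43 (adjusted p = 0.110). Since wounding libraries enter both this comparison and that of wounding with control, the values of a gene in the 2 comparisons are not independent of each other.

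GRMZM2G132550 had another pattern. It was at 6.45, 2.99 and 5.61 CPM in regurgitate libraries, at 0.57, 0.44 and 0 CPM in wounding, 0.37, 0 and 2.97 CPM in control and 0.11, 0.97 and 1.28 CPM in larva libraries. Its counts were too low for a test of wounding or larva against control, and it entered the other tests through the regurgitate group, where it was high, so that its p-values are of a gene that had to differ. Every regurgitate library was above every library of the other groups, although the lowest of them was only just above control 3. Against wounding the log2 fold change was 3.79 ± 0.75 (adjusted p = 0.0852 by edgeR, 0.000846 by DESeq2), and against control it was 2.14 ± 1.05 (adjusted p = 0.316 by edgeR), from 75 counts in regurgitate, 5 in wounding and 25 in control libraries.

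The calls in this comparison changed with the libraries used. Without regurgitate 2, the library with the fewest counts on maize genes and the most contigs, 2 of the members tested (4.65%) passed edgeR's test along with 665 genes (3.47%). Of these 2 members GRMZM2G171818 had also been tested with all libraries, while AC149829.2_FG004 had not and passed the filter through the regurgitate group, where it was high. Without regurgitate 3 there were 0 members and 0 genes. In a fit of all 12 libraries, which takes the spread from all groups, 5 members (GRMZM2G004356, GRMZM2G094892, GRMZM2G171818, AC149829.2_FG004 and AC193786.3_FG005) of 44 passed, or 11.4%, against 8.84% of all genes (1787), which is near the background. AC149829.2_FG004 and AC193786.3_FG005 had not passed the filter in the pairwise comparison and entered this fit through other groups.

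**Figure D2:**
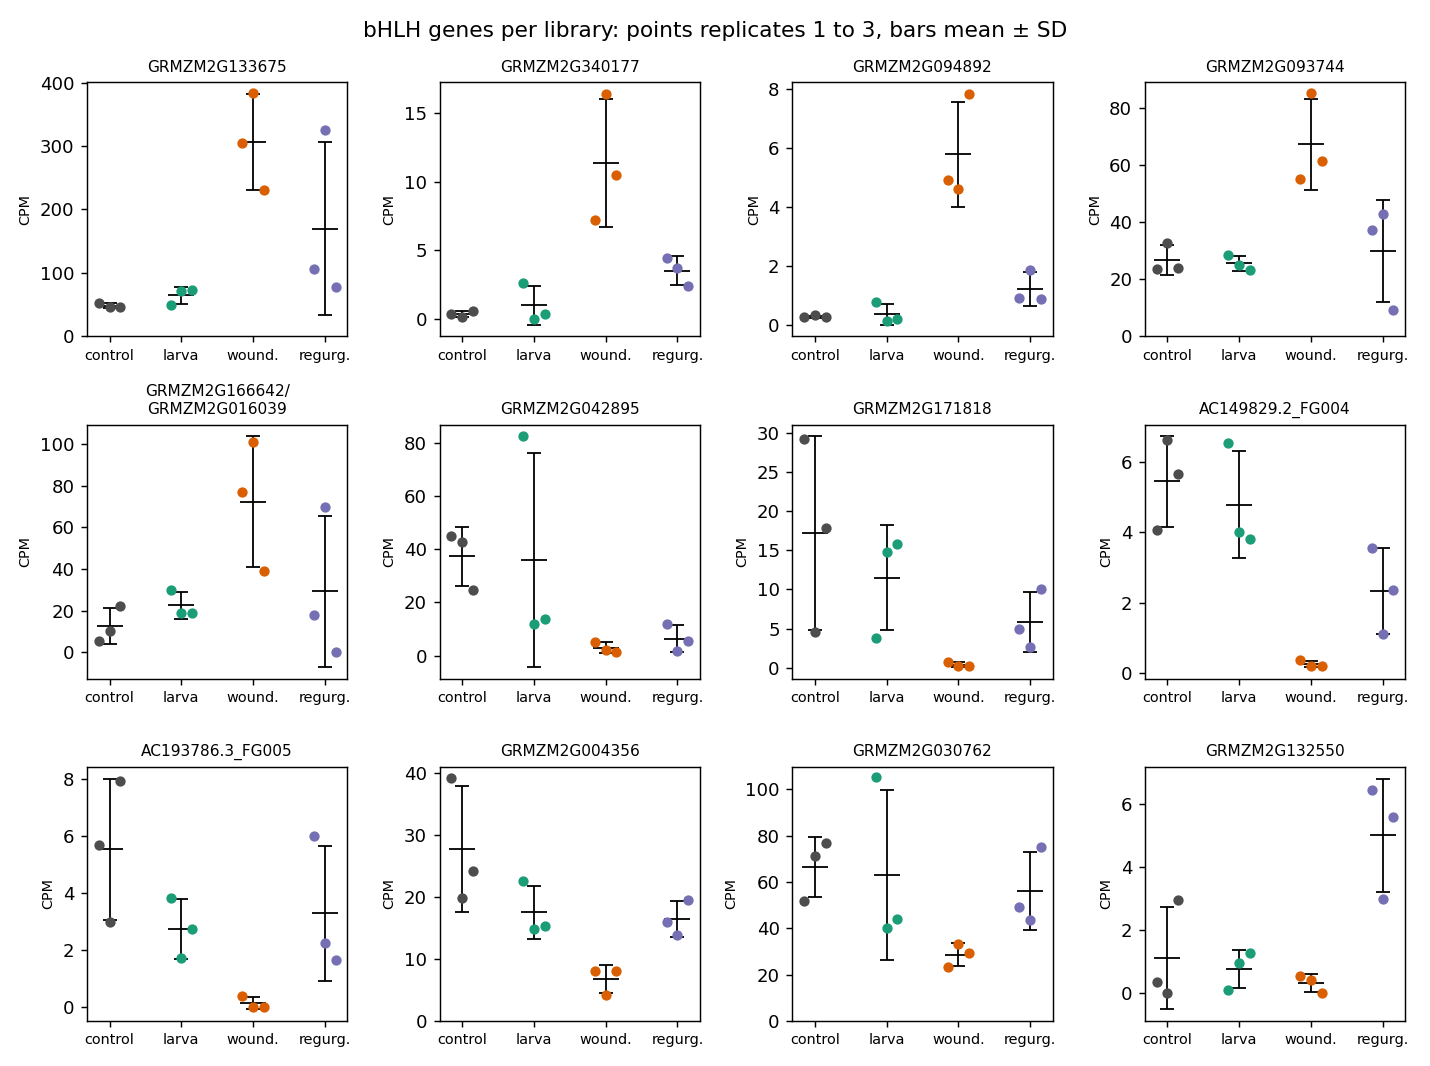
CPM of 12 bHLH genes in each library by treatment, with points for replicates 1 to 3 from left to right and bars for the mean ± SD of 3 libraries; each panel has its own linear scale. The wounding mean is the highest of the 4 from GRMZM2G133675 to GRMZM2G166642/GRMZM2G016039 and the lowest from GRMZM2G042895 to GRMZM2G132550, while the regurgitate libraries of GRMZM2G132550 lie above all others.

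Stems of plants with larvae were compared with control stems. By edgeR's test 0 of 42 members passed, where 0% of 19612 genes did. At an unadjusted p under 0.05 there was 1 member (2.38%, against 9.76% of all genes), DESeq2 called 0 members and 1.39% of all genes, and the groups did not overlap for 1 member (2.38%) and for 15.5% of all genes. Of the 42 members 32 had a value below 0 and 10 above, with a median of -0.20 on the log2 scale, where the median of all genes was -0.01. The median of the members was -0.0316 without control 1, -0.112 without larva 2, -0.135 without larva 3 and -0.108 with larva 2 and 3 summed, so that its size rested on these libraries.

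The member with the smallest p was GRMZM2G313058, at 21.3, 12.7 and 7.55 CPM in control and at 9.25, 5.23 and 6.56 CPM in larva libraries (-0.9998 ± 0.403, adjusted p = 0.484 by edgeR). Larva 1 lay above control 3, so the groups overlapped. GRMZM2G114873 was the member without overlap, at 29.6, 21.6 and 20.4 CPM in control and at 19.6, 18.8 and 13.1 CPM in larva libraries (-0.48 ± 0.22, adjusted p = 0.541), and the gap between the groups was small beside the spread within them.

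Values for the other genes with the smallest p were GRMZM2G004356 (-0.68 ± 0.29), AC193786.3_FG005 (-1.03 ± 0.45), GRMZM2G005939 (-0.56 ± 0.28) and GRMZM2G154029 (-0.44 ± 0.24), and on the other side GRMZM2G133675 (0.40 ± 0.18), the joined GRMZM2G166642/GRMZM2G016039 (0.81 ± 0.47) and GRMZM2G165188 (0.92 ± 0.92). The last was at 12.3, 0.63 and 1.08 CPM in control and at 7.51, 11.3 and 8.56 CPM in larva libraries. Control 1 alone put the groups of GRMZM2G165188 in overlap, and without it the log2 fold change was 3.36 (adjusted p = 0.0766 by edgeR). That fit was the most extreme of those without 1 library, which ran from 0.42 to 3.36 (adjusted p 0.0766 to 0.997). With all libraries the adjusted p was 0.824 by edgeR.

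The larva response (larva minus control) and the regurgitate response (regurgitate minus wounding) were also tested against each other, in the fit of all 12 libraries. Of 44 members 0 passed edgeR's test, where 1.15% of all genes did, with 11 members (25.0%) and 17.0% of all genes at an unadjusted p under 0.05. DESeq2 called 4 members (9.09%) and 6.47% of all genes: AC193786.3_FG005, AC149829.2_FG004, GRMZM2G004356 and GRMZM2G171818. Among them AC193786.3_FG005, AC149829.2_FG004 and GRMZM2G171818 had few counts in wounding libraries and passed the filter only through other groups, where they were higher. The share of members is therefore in part of genes that had to differ. The differences for GRMZM2G004356 (-1.94 ± 0.46, adjusted p = 0.0668 by edgeR) and AC149829.2_FG004 (-3.21 ± 0.69, adjusted p = 0.0519) were negative. Without regurgitate 2 edgeR called 6 members (12.5%) and 1537 genes (7.4%).

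**Figure D3:**
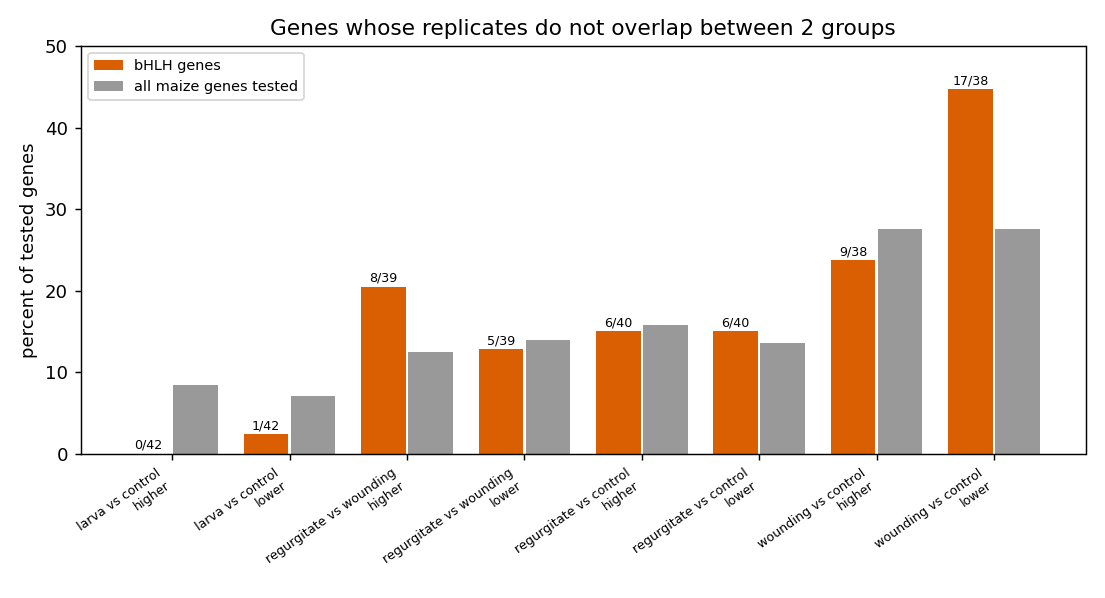
Share of tested genes (vertical axis, percent) whose 3 replicates in a group all lie above (higher) or all below (lower) the 3 of the other group, for bHLH genes (orange, with their number over the number tested) and all maize genes tested (grey). In wounding against control 17 of 38 bHLH genes were lower without overlap, against 27.6% of all genes, and in larva against control 1 of 42 was, against 7.05%.

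The pair of gene models that share the name bHLH172 behaved differently. RefSeq places GRMZM2G017586 and GRMZM2G093744 in a single gene, so their reads may come from the same locus. GRMZM2G017586 was at 96.0, 79.6 and 88.6 CPM in control and at 90.2, 115.4 and 69.8 CPM in wounding libraries (log2 fold change 0.05 ± 0.22, adjusted p = 0.880 by edgeR), while GRMZM2G093744 rose as given above. The 2 models thus overlapped between groups in the former and not in the latter.

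The share of the pair's counts that fell on GRMZM2G093744 was 19.6%, 29.1% and 21.3% in control, 23.6%, 19.4% and 20.3% in larva, 37.9%, 42.5% and 46.8% in wounding and 26.9%, 27.1% and 8.84% in regurgitate 1 to 3. The exact 95% binomial interval of the lowest wounding share was 34.5% to 41.5%, above that of the highest control share, 25.8% to 32.6%. Regurgitate 3 had the lowest share of all libraries, with an interval of 6.86% to 11.2%. These intervals cover counting error only, and the spread over 3 libraries is given by the shares themselves.

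**Figure D4:**
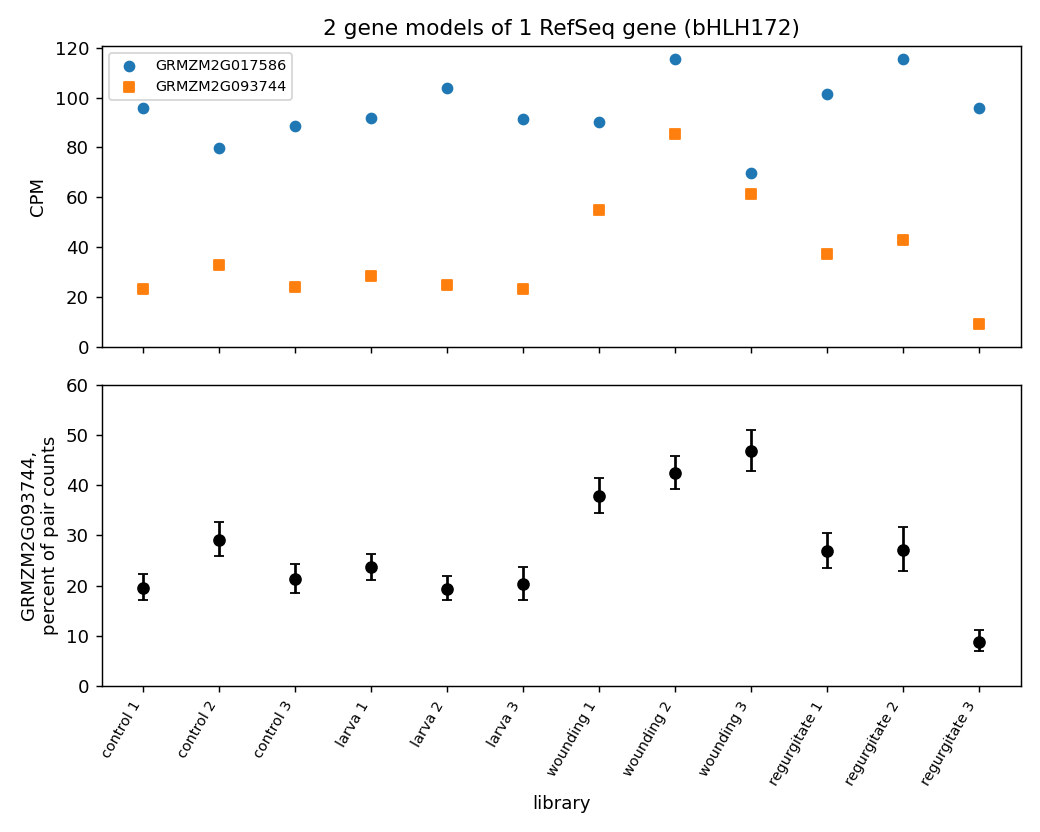
Level in CPM of the 2 gene models that RefSeq joins as bHLH172 (upper panel) and the percent of their summed counts that fell on GRMZM2G093744 (lower panel, bars are exact 95% binomial intervals) in each library. The share is 37.9% to 46.8% in wounding libraries and at most 29.1% in the other groups, with 8.84% in regurgitate 3.

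The bHLH-numbered genes outside the rule were read in the same way. Of 29 such rows 13 were tested in wounding against control, of which 2 were higher and 4 lower (46.2% called, beside 38.8% of all genes). In larva against control, regurgitate against wounding and regurgitate against control 0 passed edgeR's test, beside 0%, 0.0602% and 1.28% of all genes. In these 3 comparisons DESeq2 called 0 of 14, 3 of 12 and 1 of 13, beside 1.39%, 8.93% and 8.9% of all genes. GRMZM2G173372 (bHLH35) rose by 3.23 ± 0.31 on the log2 scale and GRMZM5G856837 (bHLH129) by 0.58 ± 0.17. GRMZM2G019806 (bHLH137, -3.56 ± 0.40), GRMZM2G414252 (bHLH20, -3.38 ± 0.63), GRMZM2G162382 (bHLH39, -1.28 ± 0.21) and GRMZM2G153454 (bHLH90, -1.43 ± 0.38) fell, with adjusted p-values of 0.00126 to 0.0240 by edgeR. GRMZM2G137358 (bHLH17), described as SPATULA, a factor of carpel and leaf growth in *Arabidopsis*, was at -0.01 ± 0.17.

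Genes of pathways in which bHLH proteins act were counted in wounding against control from lists defined by words in the descriptions. Of 15 tested genes of the jasmonate list, 7 were higher and 1 lower. Those higher included the ZIM motif genes GRMZM2G343157 (5.99 ± 0.99), GRMZM2G173596 (4.58 ± 0.81) and GRMZM2G445634 (2.68 ± 0.50), of the family of the JAZ repressors. The list also took in genes described as jasmonate-induced proteins, which are not repressors, 1 of them higher (GRMZM2G438824, 7.27 ± 0.96) and 1 lower (GRMZM2G050412, -4.76 ± 0.56).

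Among flavonoid and anthocyanin enzymes, 7 of 27 tested were higher and 4 lower in wounded stems. The chalcone synthase WHP1 gene GRMZM2G151227, for the first enzyme of the flavonoid pathway, rose by 6.20 ± 0.31 and the dihydroflavonol 4-reductase gene GRMZM2G152175 by 3.93 ± 0.20, while the chalcone isomerase gene GRMZM2G060011 fell by 2.77 on the log2 scale. Of 4 phytochrome genes, the light receptors that act through phytochrome-interacting factors, 3 were higher and 1 lower, from -0.70 to 1.62. Of 9 iron-handling genes 2 were higher, both for the iron store ferritin, and 3 were lower, and of 87 MYB genes 21 were higher and 12 lower. In percent of those tested, the shares called lay between 37.9% for MYB genes and 100% for phytochromes, beside 38.8% of all genes. In larva against control and regurgitate against wounding no gene of these lists passed edgeR's test, where 0% and 0.0602% of all genes did. That absence therefore says little about the lists. For regurgitate against wounding DESeq2 called 4 of 14 jasmonate, 4 of 25 flavonoid, 1 of 4 phytochrome, 2 of 9 iron-handling and 15 of 85 MYB genes, beside 8.93% of all genes. For larva against control it called 2 of 27 flavonoid, 1 of 10 iron-handling and 2 of 95 MYB genes, beside 1.39%. In regurgitate against control 2 of 25 flavonoid genes were higher, GRMZM2G151227 (4.89 ± 0.52) and GRMZM2G152179 (2.37 ± 0.21, both with an adjusted p of 0.0193 by edgeR), as was 1 of 92 MYB genes, beside 1.28% of all genes. In the difference of responses 1 of 15 genes of the jasmonate list, 3 of 29 flavonoid and 4 of 97 MYB genes passed, beside 1.15% of all genes.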

How the data were processed

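The authors removed copies of the same molecule, trimmed the reads with Cutadapt and aligned them with Novoalign 3.00.05 to the maize genome and then its transcriptome, keeping reads that map to several places, so that counts of close gene copies can share reads. Reads left over were assembled into contigs. The authors deposited raw counts per feature and library, from which every value here was computed. The deposited signal, group means of counts divided by DESeq size factors, and the deposited p-values and fold changes of the authors' own comparisons were not used. All 12 count columns were mapped to a treatment by name, and 0 were left unmapped.

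Maize gene rows that passed filterByExpr (at least 10 counts, 15 in all) were scaled by TMM and tested with edgeR 4.0.16 (limma 3.58.1, R 4.3.3), by a two-sided quasi-likelihood F test, in the 6 libraries of the groups compared, or all 12 for the test of any treatment and the difference of responses. P-values were adjusted by Benjamini-Hochberg over all genes tested, with a threshold of 0.05, and only bHLH rows were read. The standard error is the log2 fold change divided by the root of F. Named genes were those with the smallest p in each direction of each comparison, the smallest p in the test of any treatment and the highest mean CPM. Other genes in the text, such as further genes called in wounding, the bHLH172 pair and genes of the pathway lists, were picked after their values were seen. The members and lists were chosen with earlier results of these data known. Alternatives were RLE size factors, library totals, DESeq2 1.42.0, other filters, a replicate block, a fit of all libraries, every feature in scaling, larva 2 and 3 summed, and leaving out each library. Only the pairwise tests were run on simulated data, with changes larger than most seen here, and that run is not used as support.

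Deviations of same-numbered libraries from their group means correlated by 0.156, 0.315 and 0.165 in regurgitate and wounding. In the other comparisons the correlations ran from -0.236 to 0.208. No label pairs libraries by number, so the main tests used no pairs and the replicate block was an alternative only. Sequences of the genes were not analysed here.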

Additional observations from a re-analysis of the deposited data

How the results depend on the processing

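The counts of bHLH genes called in wounding against control stayed within 16 to 23 when 1 library was left out. These were 38.1% to 57.5% of those tested, where 26.8% to 34.3% of all genes passed. Under the other settings they lay between 17 (replicate block, 44.7%, against 28.2% of all genes) and 28 (no filter, 36.4%, against 26.9%). In the test of any treatment they stayed within 14 to 23 (29.8% to 47.9%) without 1 library. All genes called in that test stayed within 4379 to 7902 (21.2% to 38.1%), the lowest without wounding replicate 2. For larva against control 0 bHLH genes passed in every setting, and all genes called were 2 by library totals, 2 with no filter, 273 by DESeq2 and 0 to 11 without 1 library. For regurgitate against wounding, DESeq2 called 6 bHLH genes (15.4%, against 8.93% of all genes). The fit of all libraries called 5 (11.4%, against 8.84%), and fits without 1 library called 0 to 2, the 2 being 4.65%, against 3.47%. All genes called there were 0 by library totals, 0 with every feature, 0 with the replicate block, 110 with no filter, 1633 by DESeq2, 1787 in the fit of all libraries and 0 to 665 without 1 library. For regurgitate against control, DESeq2 called 4 bHLH genes (10%, against 8.9% of all genes) and the fit of all libraries 2 (4.55%, against 5.89%). With no filter 1 passed (1.27%, against 1.25%), and without 1 library 0 to 1, the 1 being 2.33%, against 2.47%. Over all genes the calls were 1707 by DESeq2 and 1191 in the fit of all libraries. They were 0 with the replicate block, 0 with every feature and 0 to 489 without 1 library. For the difference of responses, 2 bHLH genes passed by library totals (4.55%, against 1.51% of all genes) and 4 by DESeq2 (9.09%, against 6.47%). With no filter 1 passed (1.23%, against 0.871%), and without 1 library 0 to 6, the 6 being 12.5%, against 7.4%. Over all genes the calls were 1308 by DESeq2 and 47 with the replicate block. They were 0 with larva 2 and 3 summed, 0 with every feature and 0 to 1537 without 1 library. The cause of these changes was not tested. With the replicate block, wounding against control gave 17 bHLH genes and 5404 genes, though no label makes the numbers pairs.

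Of the named genes, only the uncalled abundant ones in wounding against control changed sign: GRMZM2G017586 (main 0.05) to -0.38 by library totals and -0.28 with every feature, and -0.13 to 0.22 without 1 library. GRMZM2G049229 went to 0.0449 with the replicate block and -0.35 to 0.45 without 1 library, and GRMZM2G061906 to 0.0025 in the fit of all libraries and -0.0907 to 0.13 without 1 library. The filter on low counts kept 36 members out of every comparison, at means of at most 1.02 CPM, and whether deeper libraries would change that was not tested.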

Other observations

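Besides the gene rows, 30 features that are no annotated gene had a helix-loop-helix description, 25 intervals of the genome and 5 assembled contigs. Scaled as the genes were, the intervals summed to 73.0, 72.2 and 108.9 CPM in control, 61.0, 54.2 and 53.8 CPM in larva, 78.2, 103.0 and 104.9 CPM in wounding and 62.5, 71.7 and 23.04 CPM in regurgitate libraries. Every larva library lay below every control library, and regurgitate 3 was the lowest of all 12. Taken as CPM over the counts of every feature, contigs included and without TMM, the order was another: the intervals held 69.6, 70.9 and 112.9 in control, 50.8, 46.8 and 58.8 in wounding, 56.8, 52.5 and 52.2 in larva and 46.8, 27.9 and 23.3 in regurgitate libraries, so that every wounding library lay below every control. The most abundant interval was at 10.7, 11.3 and 13.1 CPM in control, 12.3, 10.3 and 7.65 CPM in larva, 23.6, 38.5 and 24.4 CPM in wounding and 13.1, 20.5 and 0.74 CPM in regurgitate libraries. All 3 wounding libraries were thus above the other 9 for that interval, and no test was run on the intervals.

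The spread between replicates was wider for bHLH genes than for all genes in each group, as the median coefficient of variation of the 44 tested members was 27.7% in control, 24.1% in larva, 31.9% in wounding and 36.2% in regurgitate libraries, against 19.4%, 16.3%, 23.8% and 29.2% for all genes tested. Members also had lower levels than all genes, and the part of level in that spread was not tested.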
